A study of Mus musculus with 23 samples.

Results

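LL2 tumors are grafts of LL/2, the Lewis lung carcinoma cell line of the C57BL/6 mouse, grown under the skin of the flank. All tumors labeled LL2 were taken, 3 of the 15 tumors and of the 23 libraries in the series, and their transcript levels were set against those of tumors from 4 other mouse cancer lines, to see which transcripts distinguished LL2 tumors from the other models. The other 12 tumors were 3 each of B16-F10 melanoma (B16), EO771.LMB breast carcinoma (EO771), MC38 colon carcinoma and Pan02 pancreatic carcinoma. All 5 models were grown in adult female C57BL/6 mice with an intact immune system, each from 500000 cultured cells of a single line, with no drug treatment and no engineered allele. Mice with ulcerating tumors had been left out by the authors, and at the endpoint RNA was taken from a fragment of each tumor, so cancer cells and host cells were sequenced together. The remaining 8 libraries are fibroblasts sorted by fibroblast activation protein from LL2, EO771, MC38 and Pan02 tumors, 2 per model, and they appear here only beside a tumor result. The labels number the tumors but do not say whether each came from its own mouse, so the p-values measure the spread between these tumors.

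Tumors attract myeloid cells by secreting chemokines and growth factors. Granulocyte colony-stimulating factor, encoded by *Csf3*, drives the production and release of neutrophils, and the CXC chemokines encoded by *Cxcl1*, *Cxcl2*, *Cxcl3*, *Cxcl5* and *Ppbp* draw them into tissue through the receptor encoded by *Cxcr2*. Wnt ligands bind Frizzled receptors with the co-receptors LRP5 and LRP6 and stabilize beta-catenin, and DKK2 is a secreted protein that binds these co-receptors and in most settings blocks the signal. PDGFRA, the alpha receptor for platelet-derived growth factors, is carried by fibroblasts and by some mesenchymal tumor cells. The Lewis lung carcinoma line is known for poorly immunogenic tumors rich in myeloid cells.

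The LL2 libraries held 14756976.5 to 19093660.5 counts, within the range of 10035175.5 to 21946490.5 over all 15 tumors. Levels are given as CPM, counts scaled to the same library total in every tumor, and values for LL2 tumors are listed in the order of tumors 1, 2 and 3. Changes are log2 fold changes (log2FC ± SE) of LL2 against the average of the 4 other models, each model weighted equally, and a gene was called higher or lower when its adjusted p in edgeR's quasi-likelihood test was under 0.05 and its log2FC was at least 1 in size, which is 2 times the level. Of 15732 genes tested, 1339 (8.51%) were higher and 1305 (8.3%) were lower in LL2 tumors. Counts within the gene lists below are to be read against these shares. Few genes were set apart from every model, with 204 (1.3%) higher and 106 (0.674%) lower than in each of the 4 models taken alone. All 3 LL2 tumors lay above the other 12 tumors for 810 genes (5.15%) and below them for 364 (2.31%). By Euclidean distance of log2(CPM + 1) over the tested genes, LL2 tumors were nearest to MC38 and EO771 (mean distances 125.29 and 125.78) and farthest from B16 (174.32), and the 3 LL2 tumors were 56.5 to 73.4 apart.

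The 3 LL2 tumors differed in the RNA of several host tissues, and the order of the tumors was not the same for each tissue. The 12 listed skeletal muscle genes, such as *Acta1*, skeletal muscle actin, summed to 13.25 CPM in tumor 1 and to 1271.8 and 1383.15 CPM in tumors 2 and 3. Muscle RNA was also present in MC38 (489 to 3895 CPM) and Pan02 tumors (62.3 to 1169 CPM) but came to no more than 29.8 CPM in any B16 or EO771 tumor. Among the LL2 tumors, keratinocyte genes stood out in tumor 3 alone, with *Krt5*, a keratin of basal epidermis, at 1.09, 0.0522 and 48.3 CPM. Summed keratinocyte genes came to 6.46, 4.12 and 115 CPM in LL2 and to 69.1, 35.0 and 32.1 CPM in Pan02. No B16, EO771 or MC38 tumor passed 11.8 CPM. Tumor 3 was also the highest and tumor 1 the lowest of the 3 for summed T cell genes (33.6, 46.9 and 147 CPM) and interferon-response genes (297, 602 and 1971 CPM). Tumor 1 was instead the highest and tumor 2 the lowest for summed fibroblast genes (17796, 8236 and 12130 CPM) and endothelial genes (599, 351 and 484 CPM). The part of muscle and skin in the results below was not tested apart from 1 alternative, chosen after seeing the data, that left out the 5 tumors richest in muscle RNA (LL2 tumors 2 and 3, Pan02 tumor 1, and MC38 tumors 1 and 3). It is called the fit without muscle-rich tumors, and its LL2 group is tumor 1 alone, assumed to vary like the other groups. In fragments of whole tumor, fewer cells of a type and less RNA per cell cannot be told apart.

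**Figure D1:**
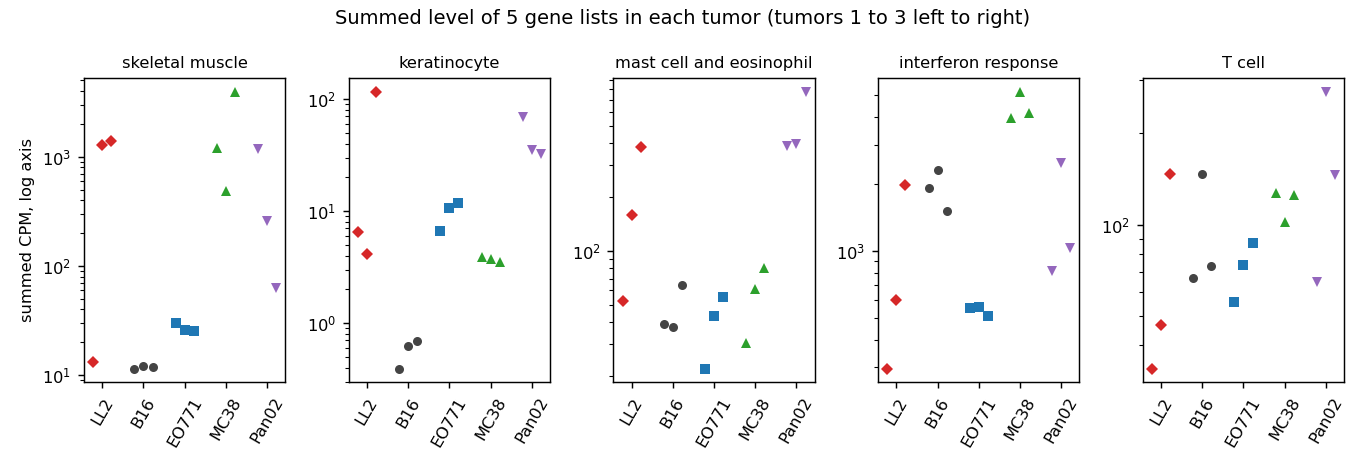
Summed level (CPM, log axis) of 5 gene lists in each of the 15 tumors, by model, where each point is a tumor. LL2 tumor 1 lies at 13.25 CPM for muscle genes while LL2 tumors 2 and 3 lie at 1271.8 and 1383.15 CPM. For keratinocyte genes LL2 tumor 3 is the highest at 115 CPM, followed by the Pan02 tumors at 32.1 to 69.1 CPM.

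*Dkk2* (chromosome 3, 132085292 to 132180304, + strand in mm10) was measured at 523, 333 and 568 CPM in the LL2 tumors. In the other 12 tumors it was at 0.844 to 6.06 CPM, so the groups were far apart (log2FC 7.201 ± 0.30, adjusted p = 2.1e-09). Taken model by model, the log2FC ran from 6.54 ± 0.52, adjusted p = 6.88e-07 against Pan02 to 7.81 ± 0.56, adjusted p = 8.15e-08 against B16. In sorted fibroblasts, the LL2 libraries held 133 and 156 RPKM of *Dkk2* and the 6 others 0.771 to 3.52 RPKM. In RPKM computed here from the tumor counts, LL2 tumors averaged 128 for *Dkk2*. The LL2 fibroblast libraries also held 97.2 and 101 RPKM of the epithelial keratin gene *Krt18*, which is not a fibroblast gene. Other genes high in LL2 tumors differed. *Nptx1* averaged 164 RPKM in LL2 tumors (45.5 and 50.7 in LL2 fibroblasts), *Nefl* 8.43 (1.73 and 1.75) and *Bnc1* 11.9 (11.4 and 14.1). How many cancer cells the fibroblast libraries contained, and which cells carried *Dkk2*, was not tested.

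*S100a8* (chromosome 3, 90669071 to 90670034, + strand) encodes a subunit of calprotectin, the most abundant protein pair of the neutrophil cytosol. Its level was 12.2, 30.9 and 7.45 CPM in LL2 tumors and 0.0982 to 7.03 CPM in the others, so LL2 tumor 3 lay only just above the highest other tumor (log2FC 4.09 ± 0.44, adjusted p = 8.15e-06). *Pdgfra* (chromosome 5, 75152251 to 75198206, + strand) was measured at 177, 103 and 188 CPM, against 1.77 to 147 CPM in the other tumors (log2FC 1.94 ± 0.22, adjusted p = 1.37e-05). It overlapped with the other models, since LL2 tumor 2 lay below the highest of them, and it was called higher than in B16 and MC38, while against EO771 and Pan02 it received no call, with means there of 94.0 and 123 CPM. Of these 3 genes, *Dkk2* and *S100a8* were thus higher than in every model and *Pdgfra* was higher than in 2 of the 4. *Pdgfra* (log2FC 0.82) lost its call without B16.

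The 200 bases before the transcription start of *Dkk2* are shown beside those of 3 neutrophil chemokine genes that were higher in LL2 tumors. All 4 genes encode secreted proteins, were called higher and have starts that lie at those of the counted transcripts. They were picked by hand, and other called genes of secreted proteins, such as *Csf3*, *Cxcl5* and *Ppbp*, are not shown. The sequences are from RefSeq (GRCm38.p6, all on the + strand, at chr3:132085092-132085291 for *Dkk2*, chr5:90891045-90891244 for *Cxcl1*, chr5:90903699-90903898 for *Cxcl2* and chr5:90785901-90786100 for *Cxcl3*), and capitals mark matches to the NF-kB consensus, the site of the factor that drives many inflammatory genes.
Dkk2: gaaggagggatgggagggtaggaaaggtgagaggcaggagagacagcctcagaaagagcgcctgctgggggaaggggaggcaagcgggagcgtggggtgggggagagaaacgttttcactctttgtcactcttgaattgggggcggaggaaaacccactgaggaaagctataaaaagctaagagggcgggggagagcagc
Cxcl1: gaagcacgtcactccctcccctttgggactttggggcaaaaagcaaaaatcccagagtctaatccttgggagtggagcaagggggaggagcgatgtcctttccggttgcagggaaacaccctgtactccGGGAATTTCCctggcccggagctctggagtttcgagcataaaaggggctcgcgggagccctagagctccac
Cxcl2: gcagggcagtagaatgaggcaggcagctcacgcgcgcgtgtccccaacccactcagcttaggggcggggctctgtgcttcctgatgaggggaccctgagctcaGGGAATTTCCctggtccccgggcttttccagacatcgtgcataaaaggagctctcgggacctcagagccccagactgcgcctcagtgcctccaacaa
Cxcl3: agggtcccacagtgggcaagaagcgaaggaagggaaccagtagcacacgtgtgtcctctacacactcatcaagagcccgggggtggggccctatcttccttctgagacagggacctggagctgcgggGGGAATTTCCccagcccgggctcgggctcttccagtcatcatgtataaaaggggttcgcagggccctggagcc
The 3 chemokine promoters each held 1 match with the same letters, at 71, 97 and 73 bases before the start, and the *Dkk2* window held none. These 3 chemokine genes are close copies of each other, so their matches are not separate observations. The consensus was present in 581 of the 12042 promoters of tested genes in this table (4.82%, both strands searched). The AP-1 motif TGANTCA, the site of Jun and Fos dimers, was in 468 of them (3.89%) and in none of the 4 shown.

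The 12 largest rises among genes of at least 10 CPM whose groups did not overlap were all higher than in each of the 4 models, and *Dkk2* and *Csf3* are among them. *Nefl*, the light neurofilament subunit, was measured at 25.5, 33.6 and 26.3 CPM, against 0 to 0.54 CPM in the other tumors (log2FC 8.02 ± 0.44, adjusted p = 1.61e-08). Part of its exon sequence (32.8%) overlaps that of *Nefm*, the medium subunit, and *Nefm* itself was at 7.88, 10.7 and 7.01 CPM in LL2 and at most 0.212 CPM elsewhere (log2FC 6.93 ± 0.45, adjusted p = 7.43e-08). *Nptx1*, a neuronal pentraxin, had the highest level of the 12 in LL2 at 793, 769 and 1036 CPM and reached no more than 106 CPM in another tumor (log2FC 6.12 ± 0.33, adjusted p = 1.59e-08). *Kcnh1*, a voltage-gated potassium channel of brain found in many cancers, was at 23.2, 24.2 and 24.4 CPM and at most 0.81 CPM elsewhere (log2FC 6.75 ± 0.44, adjusted p = 7.58e-08). *Cacnb2*, a calcium channel subunit, was at 13.3, 11.6 and 10.8 CPM (log2FC 6.23 ± 0.31, adjusted p = 8.96e-09), and *Adcyap1r1*, the receptor for the neuropeptide PACAP, was at 54.2, 53.3 and 65.9 CPM (log2FC 5.85 ± 0.26, adjusted p = 3.36e-09). The orphan receptor gene *Gpr149* was at 41.9, 54.3 and 37.4 CPM, with MC38 next at a mean of 10.2 CPM (log2FC 6.59 ± 0.34, adjusted p = 9.77e-09). *Plac1*, a trophoblast gene, was at 9.17, 13.4 and 11.5 CPM (log2FC 6.03 ± 0.33, adjusted p = 1.84e-08), and *Bnc1*, a transcription factor of squamous and germ cells, at 79.2, 42.1 and 45.2 CPM (log2FC 5.70 ± 0.43, adjusted p = 2.9e-07).

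The *Rhox* cluster of homeobox genes on the X chromosome is normally active in testis, ovary and placenta. *Rhox2d* was measured at 39.5, 52.8 and 41.3 CPM (log2FC 6.11 ± 0.30, adjusted p = 8.88e-09) and *Rhox2h* at 30.8, 34.2 and 29.1 CPM (log2FC 4.96 ± 0.17, adjusted p = 4.26e-10), and both were higher than in each of the 4 models. *Rhox2g* stood at 24.8, 25.3 and 22.9 CPM in LL2 tumors, 9.18 CPM on average in EO771, at most 0.336 CPM on average in B16 and MC38, and 0 in all 3 Pan02 tumors. The *Rhox2* copies are nearly identical, so reads may have been split among them in counting, and their single values are uncertain. *Rhox5*, the founding member, was called higher at 289, 322 and 255 CPM (log2FC 2.56 ± 0.37, adjusted p = 0.000103) but was as high in EO771 and MC38 (means 359 and 314 CPM). Of the 26 cluster genes listed, 7 were expressed enough to be tested, 4 of these were higher and 3 received no call, and the other 19 were not tested. *Rhox2d* was also present in sorted fibroblasts of LL2 (31.9 and 37.8 RPKM) and EO771 (13.1 and 17.0 RPKM) tumors. *Rhox5* (log2FC 1.01) lost its call without B16.

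**Figure D2:**
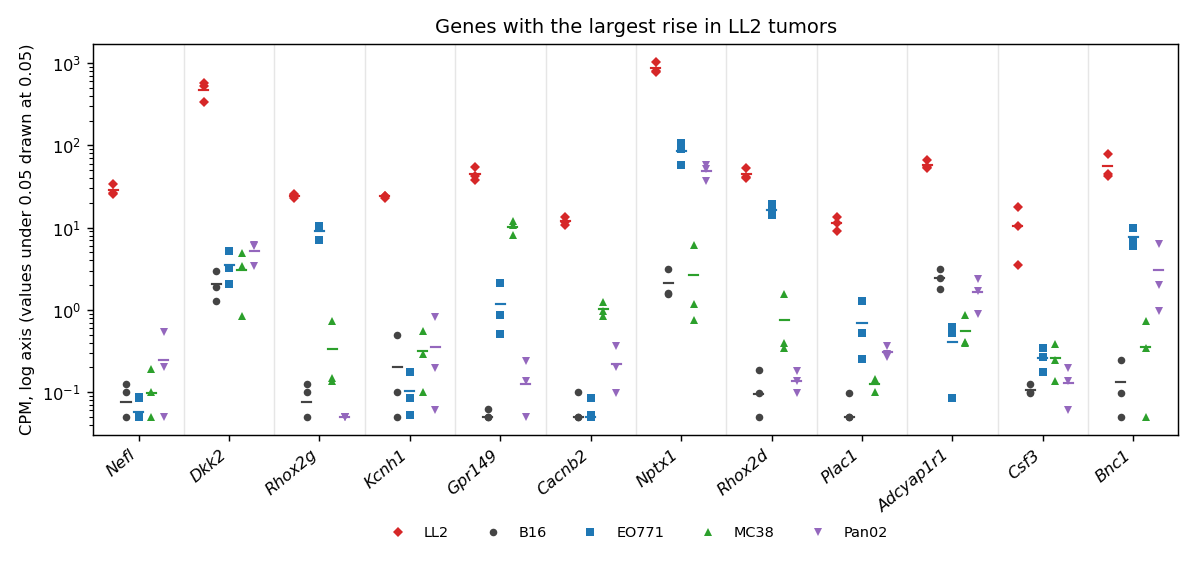
Level (CPM, log axis) of the 12 genes with the largest rises in LL2 among those whose LL2 and other tumors did not overlap, with 1 point per tumor. In every panel the 3 LL2 tumors lie above the 12 others, and for *Dkk2* they lie between 333 and 568 CPM while no other tumor passes 6.06 CPM.

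Of the 12 largest falls, 10 were lower than in each of the 4 models. *Cadm4*, a cell adhesion molecule, was measured at 3.40, 1.10 and 2.00 CPM in LL2 and 10.6 to 299 CPM elsewhere (log2FC -4.80 ± 0.36, adjusted p = 3.12e-07). *Igsf3*, an immunoglobulin superfamily protein, was at 3.74, 2.45 and 4.19 CPM against 26.9 to 137 CPM (log2FC -4.05 ± 0.18, adjusted p = 2.89e-09), and *Efnb1*, a membrane-bound ligand of Eph receptors, was at 3.47, 2.92 and 4.32 CPM against 7.96 to 323 CPM (log2FC -4.02 ± 0.19, adjusted p = 7.07e-09). *Unc5c*, a receptor for the guidance cue netrin, was at 0.125 to 0.156 CPM in LL2 and averaged 109 CPM in B16 and 3.40 CPM in Pan02, with EO771 and MC38 at 0.468 and 0.433 CPM (log2FC -4.30 ± 0.38, adjusted p = 1.26e-06). *Phactr1*, a regulator of phosphatase and actin, was at 0.883, 1.25 and 1.25 CPM against 2.25 to 39.9 CPM (log2FC -4.02 ± 0.35, adjusted p = 1.21e-06). *Fbxo2*, a ubiquitin ligase subunit for glycoproteins, was at 0.204 to 0.261 CPM and averaged 30.4 CPM in MC38 (log2FC -4.61 ± 0.50, adjusted p = 8.96e-06). *Megf6* was at 0.544, 1.83 and 2.00 CPM (log2FC -4.001 ± 0.61, adjusted p = 0.000156) and *Extl1*, a heparan sulfate enzyme, at 0.272, 0.678 and 0.814 CPM (log2FC -4.93 ± 0.61, adjusted p = 2.6e-05).

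*Phlda2*, an imprinted gene that restrains placental growth, was under the level of 3 counts in all LL2 tumors (at most 0.0679 CPM) and averaged 42.8 CPM in EO771 but 0.4003 to 1.41 CPM in the 3 other models (log2FC -5.44 ± 0.93, adjusted p = 0.000383). In MC38 tumors 1, 2 and 3 *Phlda2* was at 1.88, 0.199 and 0.0685 CPM. MC38 tumor 3 thus lay barely above the highest LL2 tumor and also under the level of 3 counts. Against B16 alone, the adjusted p of *Phlda2* was 0.0497, just under the threshold. B16 held the highest level of several of these genes. The small GTPase gene *Rab17* averaged 80.4 CPM in B16 and 0.787 to 1.22 CPM in the other 3 models, against 0.104 to 0.272 CPM in LL2 (log2FC -3.85 ± 0.32, adjusted p = 7.47e-07). The transporter gene *Slc6a17* averaged 248 CPM in B16 against 0.408 to 0.678 CPM in LL2 (log2FC -4.42 ± 0.46, adjusted p = 5.46e-06), and the adhesion gene *Igsf11* averaged 51.9 CPM against 0.125 to 0.156 CPM (log2FC -4.40 ± 0.49, adjusted p = 1.12e-05). *Slc6a17* and *Igsf11* were the ones lower than in 3 models only. In each LL2 tumor *Unc5c* and *Igsf11* lay at or under the level of 3 counts, which makes the size of their fold changes uncertain.

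Most of the tested neutrophil genes were higher in LL2 tumors. Of 23 listed genes, 18 were tested, 14 of them were higher and 1 lower, with a median log2FC of 1.74 against 0.0074 over all tested genes. Besides *S100a8*, its partner *S100a9* was measured at 21.5, 59.1 and 13.3 CPM and at most 9.09 CPM in another tumor (log2FC 5.08 ± 0.47, adjusted p = 2.09e-06). *Trem1*, a receptor that amplifies neutrophil inflammation, was at 6.12, 14.0 and 10.3 CPM and at most 6.01 CPM elsewhere (log2FC 3.11 ± 0.33, adjusted p = 6.53e-06), and the lectin receptor gene *Clec4e* at 9.85, 23.2 and 16.7 CPM and at most 7.56 CPM (log2FC 2.46 ± 0.32, adjusted p = 4.55e-05). These 3 genes and *S100a8* had LL2 tumors wholly above the others. *Lcn2*, lipocalin of neutrophil granules, was higher than in each model although LL2 tumor 1 overlapped with them (2.79, 9.18 and 11.5 CPM, log2FC 2.47 ± 0.35, adjusted p = 8.19e-05). *Lcn2* (log2FC 1.02) lost its call without the muscle-rich tumors.

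*Cxcr2*, *Csf3r* and *Clec4d*, all receptors of neutrophils, were higher than the average of the models, while *Cxcr2* and *Csf3r* received no call against Pan02 alone. *Cxcr2* was measured at 5.37, 9.91 and 7.14 CPM, against a mean of 5.72 CPM in Pan02 and at most 1.04 CPM on average in any of the rest (log2FC 3.70 ± 0.38, adjusted p = 5.61e-06). *Csf3r*, the receptor for granulocyte colony-stimulating factor, was at 17.5, 36.8 and 36.4 CPM (log2FC 1.199 ± 0.23, adjusted p = 0.00102) with Pan02 at 29.7 CPM, and *Clec4d* was at 30.8, 45.6 and 23.3 CPM (log2FC 2.10 ± 0.34, adjusted p = 0.000245). The gene lower in LL2 was *Padi4*, which citrullinates histones when neutrophils cast extracellular traps. It was at 12.6, 24.4 and 12.1 CPM in LL2 but averaged 146, 116 and 77.9 CPM in EO771, MC38 and Pan02, and 2.55 CPM in B16 (log2FC -1.39 ± 0.27, adjusted p = 0.00106). *Csf3r* (log2FC 0.76) lost its call without B16, *Padi4* (-0.81) without EO771, and *Padi4* (-0.92) without MC38. *Csf3r* (0.54) lost its call without the muscle-rich tumors.

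Genes of neutrophil granules made in the bone marrow were scarce. *Ngp*, *Camp*, *Elane* and *Mpo* were too low to be tested, and *Ly6g*, the surface marker by which mouse neutrophils are sorted, was untested at 0.272 to 0.563 CPM in LL2 and 0 to 0.675 CPM elsewhere. *Mmp8*, *Retnlg* and *Ltf* were tested and received no call, at 1.44 to 5.10 CPM, 1.63 to 2.87 CPM and 0.156 to 0.814 CPM in LL2. Summed over all 23 genes, the list ranged over 209 to 473 CPM in the LL2 tumors and 30.2 to 308 CPM in the others, and LL2 tumor 2 was the highest of all 15. LL2 tumor 1, at 209 CPM, lay below every EO771, MC38 and Pan02 tumor (227 to 308 CPM) and above the B16 tumors alone. Also called higher were *Il1r2*, the decoy receptor for interleukin-1 (log2FC 2.14), the formyl peptide receptor genes *Fpr1* and *Fpr2* (1.85 and 1.5003), the acute-phase gene *Hp* (1.63), the surface protein gene *Cd177* (1.30) and *Mmp9* (1.64), a protease of neutrophils and macrophages. In the fit without muscle-rich tumors the list had 8 higher calls in place of 14. *Hp* lost its call without LL2 tumor 3 (log2FC 0.41, adjusted p = 0.411), *Cd177* without LL2 tumor 2 or 3 or B16 tumor 2 or EO771 tumor 1 (0.76 to 1.42, adjusted p = 0.0529 to 0.287), and *Mmp9* without LL2 tumor 2 (0.94, adjusted p = 0.0499). *Cd177* (log2FC 1.12) and *Mmp9* (0.56) lost their calls without B16, *Cd177* (1.12) without EO771, and *Il1r2* (0.83), *Fpr1* (1.34), *Fpr2* (-0.13), *Hp* (-0.060) and *Cd177* (0.39) without the muscle-rich tumors. DESeq2 did not call *Cd177* (log2FC 1.29). *Mmp8* was called higher without Pan02 tumor 3 (log2FC 1.29, adjusted p = 0.0453), without MC38 (1.47) and without the muscle-rich tumors (2.38). *Retnlg* was called higher without Pan02 tumor 3 (log2FC 1.96, adjusted p = 0.0145) and without Pan02 (3.03).

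Factors that draw or expand neutrophils were mostly higher too. Of 15 listed, 13 were tested, with 10 higher, 1 lower and a median log2FC of 1.83. *Csf3* was measured at 3.53, 17.6 and 10.6 CPM and never above 0.385 CPM in another tumor (log2FC 5.83 ± 0.35, adjusted p = 4.15e-08). *Cxcl1* was at 42.7, 533 and 77.8 CPM (log2FC 6.15 ± 0.57, adjusted p = 1.96e-06), where tumor 2 held by far the most and tumor 1 lay below the highest MC38 tumor at 49.98 CPM. *Ppbp*, a chemokine of platelets and myeloid cells, was at 30.8, 28.0 and 2.63 CPM and at most 2.17 CPM elsewhere (log2FC 4.93 ± 0.54, adjusted p = 8.59e-06). Each of these 3 was higher than in every model.

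*Cxcl2* (16.8, 89.2 and 23.0 CPM, log2FC 3.59 ± 0.56, adjusted p = 0.000185), *Cxcl3* (14.8, 42.1 and 9.45 CPM, log2FC 3.59 ± 0.54, adjusted p = 0.000129) and *Cxcl5* (20.4, 47.3 and 28.7 CPM, log2FC 3.37 ± 0.45, adjusted p = 4.83e-05) were each higher than in 3 models. For *Cxcl2* the exception was MC38, and for *Cxcl3* and *Cxcl5* it was Pan02, with means of 21.5 and 45.1 CPM. *Cxcl1*, *Cxcl2* and *Cxcl3* are close copies of each other, and reads may have been split among them. Tumor 2 was the highest LL2 tumor for every chemokine named here except *Ppbp*, and the summed list ranged over 294 to 1140.4 CPM in the LL2 tumors and 18.0 to 262 CPM in the others. *Cxcl1* was also abundant in sorted fibroblasts of LL2 (260.4 and 131 RPKM) and EO771 (169 and 230.2 RPKM) tumors.

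The inflammatory cytokines of this list overlapped more with the other models. *Il1b*, *Il6* and *Lif*, and the platelet chemokine gene *Pf4*, were called higher, with log2FC of 1.73, 1.82, 1.83 and 1.54. *Il1a* (0.125 to 0.626 CPM) and *Tnf* (1.97 to 3.38 CPM) received no call. *Il23a*, a subunit of interleukin-23, was called lower (log2FC -1.84 ± 0.44, adjusted p = 0.00413), and EO771 averaged 52.0 CPM. Without LL2 tumor 2 the list had 6 higher calls in place of 10, and without the B16 tumors also 6. *Il1b* lost its call without LL2 tumor 2 (log2FC 1.24, adjusted p = 0.121), *Il6* without LL2 tumor 2 (1.001, adjusted p = 0.281), and *Lif* without LL2 tumor 2 (0.98, adjusted p = 0.0195). *Pf4* lost its call without LL2 tumor 2 (log2FC 1.14, adjusted p = 0.137). *Il1b* (log2FC 0.81), *Il6* (1.22), *Lif* (0.67) and *Pf4* (1.02) lost their calls without B16, *Il6* (1.62) and *Il23a* (-0.22) without EO771, and *Il1b* (0.80), *Il6* (0.68), *Lif* (0.95) and *Il23a* (-1.48) without the muscle-rich tumors. *Il1a* was called lower without Pan02 tumor 1 (log2FC -1.47, adjusted p = 0.0234).

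**Figure D3:**
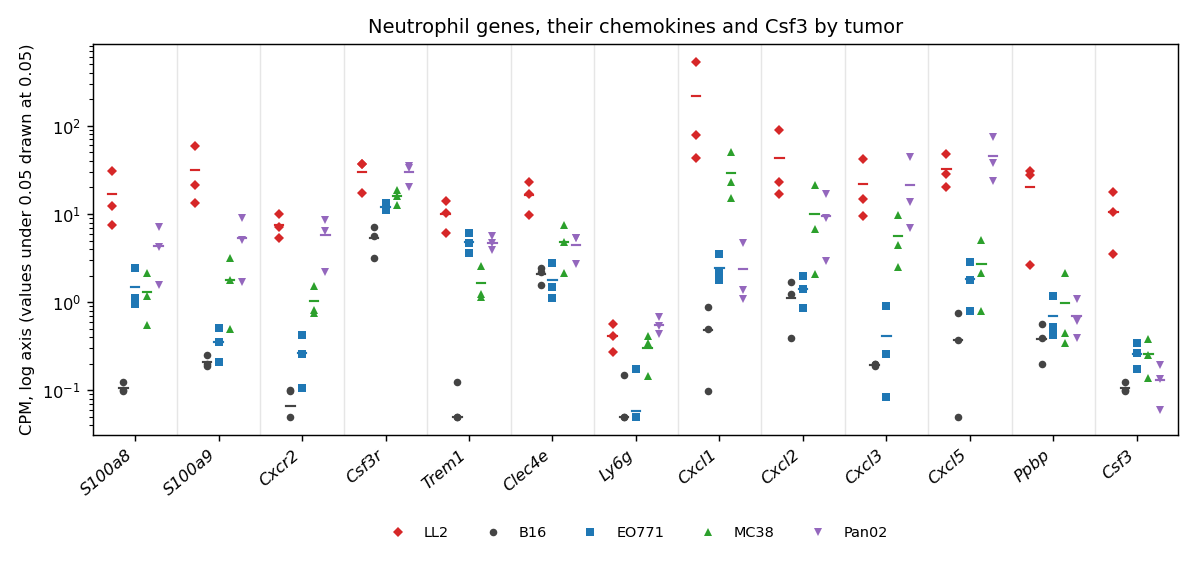
Level (CPM, log axis) of neutrophil genes and of neutrophil chemokine and growth factor genes in the 15 tumors, 1 point per tumor, with levels under 0.05 drawn at 0.05. LL2 tumors are the highest group for *S100a8*, *S100a9*, *Csf3* and *Ppbp*, while *Cxcl5* is as high in Pan02 (mean 45.1 CPM) and *Ly6g* reaches at most 0.675 CPM.

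Monocyte chemoattractants were higher in 4 of 12 cases, while most macrophage genes received no call. *Ccl7* was measured at 89.6, 114 and 88.0 CPM, above all other tumors (at most 77.4 CPM, log2FC 1.44 ± 0.36, adjusted p = 0.00557), and *Ccl2* at 208, 353 and 226 CPM, with MC38 close at a mean of 192 CPM (log2FC 2.47 ± 0.31, adjusted p = 2.77e-05). *Csf1*, the growth factor of macrophages, was at 271, 284 and 313 CPM, and no other tumor passed 204 CPM (log2FC 1.21 ± 0.12, adjusted p = 4.09e-06). With *Ccl9* (log2FC 1.47 ± 0.45, adjusted p = 0.0184), 4 of the 12 genes in this list were higher and 8 received no call (median log2FC 0.75). Without the B16 tumors the higher count was 2 and without Pan02 it was 7. *Ccl9* lost its call without LL2 tumor 2 (log2FC 1.202, adjusted p = 0.113). *Csf1* (log2FC 0.76) and *Ccl9* (1.05) lost their calls without B16, and *Ccl9* (1.08) without the muscle-rich tumors.

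Of 24 monocyte and macrophage genes, 5 were higher, 2 lower and 17 without a call, with a median log2FC of 0.47. Over all tested genes 8.51% were higher and 8.3% lower. The pan-macrophage genes *Csf1r* (161 to 291 CPM in LL2), *Adgre1* (93.5 to 160.1 CPM), *Cd68* (144 to 209.9 CPM) and *C1qa* (332 to 821 CPM) all received no call and overlapped with EO771, MC38 and Pan02. *Cd163*, a scavenger receptor for hemoglobin, was higher at 32.0, 45.1 and 46.1 CPM (log2FC 2.14 ± 0.57, adjusted p = 0.00826), with Pan02 at a mean of 83.8 CPM. *Itgam*, integrin alpha M of all myeloid cells, was higher at 161, 150.5 and 264 CPM (log2FC 1.12 ± 0.24, adjusted p = 0.00221), although 68.7% of its exon bases lie within another annotated gene. *Ccr2*, the monocyte receptor for CCL2, was at 35.0, 45.2 and 81.1 CPM (log2FC 1.12 ± 0.34, adjusted p = 0.0171) and *Cd14*, the endotoxin co-receptor, at 73.5, 178 and 127 CPM (log2FC 1.67 ± 0.36, adjusted p = 0.00208). *Gpnmb* was lower at 59.7, 30.5 and 29.2 CPM (log2FC -2.84 ± 0.28, adjusted p = 3.2e-06), and as a melanosome gene it averaged 7264 CPM in B16. *Apoe*, apolipoprotein E, was lower at 782, 868 and 1643 CPM (log2FC -1.23 ± 0.36, adjusted p = 0.0152). *Marco*, a scavenger receptor of macrophages, was at 3.26, 5.74 and 4.13 CPM, just past the threshold (log2FC 1.79 ± 0.68, adjusted p = 0.0484). The higher count of 5 became 1 without the B16 tumors and 2 without LL2 tumor 3. In the fit without muscle-rich tumors, *Mrc1* and *Lyz2*, which received no call in the main fit, had a log2FC of 1.32 and 1.28. *Itgam* lost its call without LL2 tumor 3 (log2FC 0.83, adjusted p = 0.0299), *Ccr2* without LL2 tumor 3 (0.70, adjusted p = 0.178), and *Apoe* without LL2 tumor 1 or 2 (-1.08 to -1.05, adjusted p = 0.0708 to 0.078). *Marco* lost its call without any LL2 tumor or any B16 tumor or any EO771 tumor or MC38 tumor 3 or Pan02 tumor 1 or 3 (log2FC 1.55 to 1.97, adjusted p = 0.0533 to 0.177). *Itgam* (log2FC 0.71), *Ccr2* (0.88), *Cd14* (0.83) and *Marco* (2.07) lost their calls without B16, *Marco* (1.71) without EO771, and *Apoe* (-0.74) and *Marco* (1.03) without Pan02. *Cd163* (1.76), *Itgam* (0.94), *Ccr2* (0.42) and *Cd14* (1.14) lost their calls without the muscle-rich tumors.

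Of 15 dendritic cell genes 2 were higher and 2 lower, where 8.51% and 8.3% of all tested genes were called. *Clec9a*, the receptor for dead cells on cross-presenting dendritic cells, was measured at 13.6, 7.87 and 10.3 CPM, above every other tumor (at most 4.92 CPM, log2FC 2.89 ± 0.39, adjusted p = 6.26e-05) and higher than in each model. *Xcr1*, another marker of those dendritic cells, was at 0.408, 0.104 and 1.002 CPM in LL2 and received no call (log2FC -1.73 ± 0.71, adjusted p = 0.0672), and *Clec9a* was present in the LL2 sorted fibroblasts at 2.22 and 2.52 RPKM against 0 to 0.477 RPKM in the others. *Zbtb46*, a transcription factor of classical dendritic cells, was lower at 1.83, 2.35 and 2.82 CPM against 2.88 to 7.55 CPM (log2FC -1.08 ± 0.23, adjusted p = 0.002). *Flt3*, the receptor for the growth factor of dendritic cells, was higher and *Itgax*, integrin alpha X, lower (log2FC 1.65 and -1.26). *Zbtb46* lost its call without LL2 tumor 1 (log2FC -0.95, adjusted p = 0.0132), *Flt3* without LL2 tumor 3 (1.07, adjusted p = 0.131), and *Itgax* without LL2 tumor 1 or 2 (-0.9999 to -0.97, adjusted p = 0.0728 to 0.0936). *Itgax* (log2FC -0.88) lost its call without EO771, *Zbtb46* (-0.97) without MC38, and *Itgax* (-0.97) without Pan02. *Flt3* (0.93) lost its call without the muscle-rich tumors. *Xcr1* was called lower without LL2 tumor 3 or Pan02 tumor 1 or 3 (log2FC -2.72 to -1.84, adjusted p = 0.0326 to 0.0456), without EO771 (-2.39) and in DESeq2 (-1.76).

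None of 16 tested T cell genes and none of 10 NK and cytotoxic genes was called in either direction by edgeR (median log2FC -0.36 and 0.16). At an unadjusted p under 0.05 there were 1 lower T cell gene, 1 lower NK gene and 1 higher NK gene, and DESeq2 called 1 NK gene lower. *Cd8a* was measured at 1.29, 1.51 and 15.7 CPM and *Cd3e* at 1.36, 1.51 and 10.4 CPM, so tumor 3 held most of the T cell RNA of the LL2 group, and *Gzmb*, granzyme B, was at 4.82, 16.01 and 44.6 CPM. In the fit without muscle-rich tumors, where LL2 is tumor 1 alone, 8 T cell genes were called lower. Of 5 tested B cell genes, *Cd79a*, a chain of the B cell receptor, was lower at 0.679, 0.522 and 0.501 CPM (log2FC -2.19 ± 0.51, adjusted p = 0.00372). *Cd8a* was called lower without LL2 tumor 3 (log2FC -2.70, adjusted p = 0.0248). So were the T cell genes *Cd3g*, *Cd4*, *Cd8b1*, *Lck*, *Cd28* and *Il2ra* and the NK genes *Eomes*, *Nkg7* and *Ifng* (log2FC -3.57 to -1.26, adjusted p = 0.00167 to 0.0481). The log2FC of *Eomes*, *Nkg7* and *Ifng* without the muscle-rich tumors was -2.48, -2.83 and -3.97. *Gzma*, granzyme A, was called higher without LL2 tumor 1 (log2FC 1.68, adjusted p = 0.0099). *Cd3e* was called lower without LL2 tumor 3 (log2FC -2.20, adjusted p = 0.017) and without the muscle-rich tumors (-2.32). *Gzmb* was called lower without the muscle-rich tumors (log2FC -2.02).

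Antigen presentation and interferon-response genes were called lower or not at all, and the 3 LL2 tumors were far apart. In the class I pathway, 4 of 13 genes were lower and 9 received no call (median log2FC -0.74). These 4 were the peptide transporter gene *Tap1* (41.1, 75.3 and 208 CPM, log2FC -1.31 ± 0.38, adjusted p = 0.0135), the immunoproteasome genes *Psmb8* (30.5, 73.2 and 153 CPM, log2FC -1.28 ± 0.36, adjusted p = 0.0105) and *Psmb9* (11.5, 29.7 and 69.9 CPM, log2FC -1.42 ± 0.40, adjusted p = 0.0115), and *Nlrc5* (13.5, 27.2 and 73.3 CPM, log2FC -1.08 ± 0.37, adjusted p = 0.0309), the transactivator of class I genes. *B2m*, the shared light chain, was at 564, 1019 and 1629 CPM and received no call (log2FC -0.50 ± 0.25, adjusted p = 0.122). The count of 4 became 1, 0 and 7 without LL2 tumors 1, 2 and 3, 0 without MC38 and 9 without muscle-rich tumors. *Tap1* lost its call without LL2 tumor 1 or 2 (log2FC -1.10 to -0.94, adjusted p = 0.0382 to 0.077), *Psmb8* without LL2 tumor 1 or 2 (-1.18 to -0.90, adjusted p = 0.02 to 0.0552), and *Psmb9* without LL2 tumor 2 (-1.28, adjusted p = 0.0617). *Nlrc5* lost its call without LL2 tumor 1 or 2 (log2FC -0.88 to -0.69, adjusted p = 0.0902 to 0.141). *Psmb9* (log2FC -1.18) and *Nlrc5* (-0.90) lost their calls without B16, and *Tap1* (-0.89), *Psmb8* (-0.95), *Psmb9* (-1.06) and *Nlrc5* (-0.82) without MC38. *B2m* was called lower without the muscle-rich tumors (log2FC -1.47).

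Of 22 interferon-response genes, 3 were lower, where 8.3% of all tested genes were. The other 19 received no call and the median log2FC was -0.49. Among the 3 were the antiviral gene *Rsad2* (12.4, 19.1 and 58.2 CPM, log2FC -1.29 ± 0.41, adjusted p = 0.0233) and the tryptophan-degrading enzyme *Ido1* (0.204 to 0.438 CPM against a mean of 25.7 CPM in MC38). The count was 15 without LL2 tumor 3 and 20 without muscle-rich tumors, but 0 without tumor 1 or without tumor 2. In the class II pathway 2 of 9 genes, *H2-DMb1* and *H2-Oa* (log2FC -1.12 and -1.15), were lower. Without LL2 tumor 3, *Ciita*, *Cd74*, *H2-Aa*, *H2-Ab1*, *H2-Eb1* and *H2-DMa* were also called lower (log2FC -1.91 to -1.44, adjusted p = 0.00347 to 0.0384). Their log2FC without the muscle-rich tumors was -2.55 to -2.26. *Rsad2* lost its call without LL2 tumor 1 or 2 (log2FC -1.04 to -0.94, adjusted p = 0.0889 to 0.118), *Ido1* without LL2 tumor 1 or 2 or B16 tumor 2 or 3 or EO771 tumor 3 or MC38 tumor 1 (-1.85 to -0.91, adjusted p = 0.0511 to 0.908), and *H2-DMb1* without LL2 tumor 1 or 2 or B16 tumor 2 or EO771 tumor 1 or 2 or MC38 tumor 1 (-1.13 to -0.74, adjusted p = 0.0515 to 0.154). *H2-Oa* lost its call without LL2 tumor 1 or 2 (log2FC -0.98 to -0.85, adjusted p = 0.124 to 0.134). *Rsad2* (log2FC -0.98) lost its call without B16, *Rsad2* (-0.398), *Ido1* (-0.35), *H2-DMb1* (-1.11) and *H2-Oa* (-0.92) without MC38, and *Ido1* (-1.42), *H2-DMb1* (-0.90) and *H2-Oa* (-0.91) without Pan02. *Ido1* (-2.34) lost its call without the muscle-rich tumors.

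Among 14 tested checkpoint and immunosuppressive genes 3 were lower and 11 received no call. *Nectin2*, a ligand of the inhibitory receptors TIGIT and PVRIG, was lower than in every model at 33.9, 15.6 and 25.5 CPM against 42.3 to 128 CPM (log2FC -1.36 ± 0.27, adjusted p = 0.00126). *Nt5e*, the adenosine-making ectoenzyme CD73, was lower (log2FC -1.09 ± 0.25, adjusted p = 0.00315), and EO771 averaged 142 CPM. *Tnfsf18*, the ligand of the costimulatory receptor GITR, was also lower (log2FC -2.56 ± 0.66, adjusted p = 0.00684), from LL2 levels under that of 3 counts. *Cd274*, which encodes PD-L1, was at 13.4, 26.6 and 45.3 CPM and received no call (log2FC -0.56 ± 0.38, adjusted p = 0.264). *Nt5e* lost its call without LL2 tumor 3 (log2FC -0.83, adjusted p = 0.0193). *Nt5e* (log2FC -0.0023) lost its call without EO771, and *Nectin2* (-0.78), *Nt5e* (-0.38) and *Tnfsf18* (-2.02) without the muscle-rich tumors. *Cd274* was called lower without the muscle-rich tumors (log2FC -1.58).

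Mast cell genes were higher than the average of the other models, with Pan02 at or above LL2. Of 10 tested genes of mast cells, basophils and eosinophils 7 were higher (median log2FC 1.97), among them the mast cell proteases *Cpa3* (6.18, 21.2 and 42.4 CPM, log2FC 2.40 ± 0.50, adjusted p = 0.00182) and *Cma1* (10.2, 39.1 and 82.3 CPM, log2FC 2.35 ± 0.48, adjusted p = 0.00152), which averaged 43.7 and 88.1 CPM in Pan02. Both genes were lowest in LL2 tumor 1 and highest in tumor 3, as the summed muscle genes were. All 7 lost their calls without the B16 tumors or without muscle-rich tumors, and 3 were called without LL2 tumor 3. *Cpa3* (log2FC 1.26) and *Cma1* (1.37) lost their calls without B16, and *Cpa3* (0.47) and *Cma1* (0.21) without the muscle-rich tumors.

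Of 20 tested genes of prostaglandin synthesis, breakdown and sensing 5 were higher and 1 lower, with a median log2FC of -0.04, and 4 of the 5 lie on the route from membrane lipid to prostaglandin E2. *Pla2g4a*, the phospholipase that frees arachidonic acid, was measured at 46.6, 45.4 and 36.5 CPM (log2FC 1.25 ± 0.13, adjusted p = 6.77e-06). The cyclooxygenase genes followed, with *Ptgs1* at 196, 169 and 166 CPM (log2FC 2.56 ± 0.17, adjusted p = 1.09e-07) and the inducible *Ptgs2* at 139, 233 and 82.6 CPM (log2FC 3.36 ± 0.47, adjusted p = 7.54e-05). *Ptges*, the synthase that makes prostaglandin E2, was at 415, 747 and 459.7 CPM, above all other tumors (at most 164 CPM, log2FC 4.03 ± 0.14, adjusted p = 4.26e-10). These enzymes differed in their pattern, since *Ptges* was higher than in every model, *Ptgs1* higher than in B16 and MC38, and *Ptgs2* higher than in B16 and EO771. *Pla2g4a* (log2FC 0.92) lost its call without B16, and *Pla2g4a* (0.89) without EO771.

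*Ptgfr*, the receptor for prostaglandin F2 alpha, was also higher than in every model at 7.88, 6.52 and 8.01 CPM (log2FC 3.43 ± 0.32, adjusted p = 2e-06). The receptors for prostaglandin E2 encoded by *Ptger2* and *Ptger4* received no call (1.57 to 2.19 CPM and 4.28 to 12.1 CPM in LL2), nor did *Hpgd*, the enzyme that breaks the product down (0.417 to 0.939 CPM). *Ptgds*, a prostaglandin D synthase, was lower (log2FC -2.98 ± 0.45, adjusted p = 0.000134), and it averaged 1397 CPM in B16 and no more than 4.42 CPM in EO771, MC38 or Pan02. *Ptgds* (log2FC -0.50) lost its call without B16.

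In arginine metabolism, which myeloid cells use to limit T cells, 3 of 13 genes were higher and 2 lower. *Nos2*, inducible nitric oxide synthase, was measured at 112, 332 and 70.7 CPM (log2FC 2.74 ± 0.37, adjusted p = 5.53e-05), highest in tumor 2, and *Gch1*, which makes its cofactor, at 45.7, 53.8 and 59.2 CPM (log2FC 1.17 ± 0.09, adjusted p = 3.31e-07). *Odc1*, the first enzyme of polyamine synthesis and a target of Myc, was at 424, 753 and 566 CPM (log2FC 1.11 ± 0.13, adjusted p = 1.18e-05), with EO771 higher at a mean of 828 CPM. *Arg1*, arginase of suppressive myeloid cells, was at 229, 202 and 131 CPM, received no call (log2FC 1.36 ± 0.62, adjusted p = 0.0964) and averaged 549 CPM in Pan02. The arginine transporter gene *Slc7a1* was lower at 86.0, 82.0 and 102 CPM (log2FC -1.05 ± 0.12, adjusted p = 1.3e-05), as was *Nos1* (log2FC -1.57 ± 0.36, adjusted p = 0.00313). Without Pan02, 5 genes of the list were higher. *Odc1* lost its call without LL2 tumor 2 (log2FC 0.88, adjusted p = 8.97e-05), and *Slc7a1* without LL2 tumor 2 (-0.99, adjusted p = 0.00021). *Gch1* (log2FC 0.65), *Odc1* (0.96) and *Slc7a1* (-0.91) lost their calls without B16, *Nos1* (-0.69) without EO771, and *Slc7a1* (-0.84) and *Nos1* (-0.65) without MC38. *Odc1* (0.79) lost its call without Pan02, and *Gch1* (0.94), *Odc1* (0.67) and *Nos1* (-1.48) without the muscle-rich tumors. *Arg1* was called higher without MC38 tumor 1 or Pan02 tumor 3 (log2FC 1.71 to 1.74, adjusted p = 0.0131 to 0.0232), without Pan02 (2.36) and without the muscle-rich tumors (2.15).

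Across the Wnt lists more genes were called lower than higher. Of 9 tested secreted inhibitors, *Dkk2* was the only one higher and 3 were lower. *Dkk3*, a member of the family that does not bind LRP co-receptors, was lower than in each model at 5.64, 3.29 and 5.76 CPM (log2FC -3.74 ± 0.44, adjusted p = 1.58e-05), with B16 at a mean of 472 CPM. *Sfrp1* and *Dkkl1* were lower too (log2FC -1.88 ± 0.57, adjusted p = 0.0165, and log2FC -1.56 ± 0.57, adjusted p = 0.0405). Without LL2 tumor 1, *Dkk3* was the only inhibitor called lower. *Dkk1*, the best-known family member, was at 0 in all LL2 tumors and was not tested. *Sfrp1* lost its call without LL2 tumor 1 (log2FC -1.61, adjusted p = 0.0744), and *Dkkl1* without LL2 tumor 1 or 2 or B16 tumor 1 or 2 or any EO771 tumor or MC38 tumor 2 or 3 or Pan02 tumor 2 (-1.58 to -1.27, adjusted p = 0.0532 to 0.169). *Dkkl1* (log2FC -0.94) lost its call without EO771, *Dkkl1* (-1.29) without MC38, and *Sfrp1* (-1.19) without Pan02.

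Of 20 Wnt receptor genes 7 were lower and 2 higher, with a median log2FC of -0.72. *Lgr4*, a receptor for R-spondins, was lower than in every model at 5.57, 5.01 and 6.64 CPM against 7.98 to 30.7 CPM (log2FC -1.57 ± 0.26, adjusted p = 0.000301). Among Frizzled receptors *Fzd7* was at 26.1, 13.1 and 15.96 CPM, lower than in 3 models and higher than in EO771 (log2FC -1.5003 ± 0.17, adjusted p = 1.52e-05), and *Fzd2* at 21.0, 13.0 and 15.5 CPM (log2FC -1.28 ± 0.26, adjusted p = 0.00149). *Lgr5*, a stem cell marker, was at 0.204, 0.313 and 0.751 CPM (log2FC -2.09 ± 0.48, adjusted p = 0.00339), and Pan02 averaged 47.7 CPM. The co-receptor genes that DKK2 protein binds, *Lrp5* (262, 190.2 and 264 CPM) and *Lrp6* (119.9, 69.2 and 109.6 CPM), and its partner *Kremen1* (184, 151 and 135 CPM) received no call. *Ror2*, a receptor for Wnt5a, and *Lgr6* were higher (log2FC 1.10 ± 0.35, adjusted p = 0.0218, and log2FC 1.36 ± 0.40, adjusted p = 0.0147). The lower count of 7 became 2 without Pan02 and 3 without muscle-rich tumors. *Ror2* lost its call without LL2 tumor 1 or MC38 tumor 2 (log2FC 0.82 to 0.99, adjusted p = 0.00743 to 0.139), and *Lgr6* without LL2 tumor 2 (0.97, adjusted p = 0.141). *Fzd7* (log2FC -0.98) and *Ror2* (0.22) lost their calls without B16, *Lgr6* (1.12) without EO771, and *Lgr6* (0.85) without MC38. *Fzd7* (-0.99), *Fzd2* (-0.55) and *Lgr5* (-0.51) lost their calls without Pan02, and *Fzd7* (-0.98) and *Fzd2* (-0.80) without the muscle-rich tumors. *Kremen1* was called higher without Pan02 (log2FC 1.06).

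Of 15 tested Wnt and R-spondin ligands 5 were lower and 1 higher (median log2FC -0.59). *Wnt7b*, a ligand of lung and other epithelia, was higher at 152, 179 and 158 CPM (log2FC 2.42 ± 0.57, adjusted p = 0.00383), but it averaged 494 CPM in EO771 and 212 CPM in Pan02. *Wnt10a* (0.612, 1.72 and 1.06 CPM, log2FC -3.04 ± 0.35, adjusted p = 1.46e-05), *Wnt10b* (1.16, 1.04 and 1.002 CPM, log2FC -2.50 ± 0.22, adjusted p = 1.38e-06) and *Wnt6* (0.476, 0.469 and 1.06 CPM, log2FC -3.53 ± 0.27, adjusted p = 4.15e-07) were lower, each against EO771, MC38 and Pan02. *Rspo3*, an amplifier of Wnt signals, was lower as well (log2FC -2.54 ± 0.75, adjusted p = 0.0146). The lower count was 3 without muscle-rich tumors. *Rspo3* lost its call without LL2 tumor 1 or 2 (log2FC -2.44 to -2.21, adjusted p = 0.0611 to 0.0632). *Wnt7b* (log2FC 0.72) lost its call without B16, and *Rspo3* (-3.51) without the muscle-rich tumors.

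Of 11 tested Wnt target genes 6 were lower and 2 higher, and the median log2FC was -1.03. *Axin2*, a feedback inhibitor and the most widely used readout of the pathway, was lower at 4.42, 1.41 and 1.63 CPM against 2.12 to 49.8 CPM (log2FC -1.97 ± 0.31, adjusted p = 0.000198), and *Tcf7*, a transcription factor of the pathway that T cells also express, was lower than in every model at 6.12, 3.39 and 15.96 CPM against 28.1 to 57.8 CPM (log2FC -2.20 ± 0.37, adjusted p = 0.000347). *Nkd1*, *Nkd2*, *Rnf43* and *Bambi* completed the lower group, with log2FC of -2.05, -1.39, -1.73 and -1.03. The lower count was 3 without Pan02 and 2 without muscle-rich tumors. *Nkd1* lost its call without LL2 tumor 2 (log2FC -1.71, adjusted p = 0.05), *Rnf43* without LL2 tumor 1 or 2 (-1.49 to -1.27, adjusted p = 0.0871 to 0.115), and *Bambi* without LL2 tumor 3 or EO771 tumor 3 or Pan02 tumor 2 (-0.98 to -0.79, adjusted p = 0.008 to 0.0403). *Bambi* (log2FC -0.52) lost its call without B16, *Rnf43* (-1.496) without EO771, and *Bambi* (-0.93) without MC38. *Nkd1* (-1.01), *Nkd2* (-0.51) and *Rnf43* (-0.995) lost their calls without Pan02, and *Nkd1* (-1.11), *Nkd2* (-1.19), *Rnf43* (-2.50) and *Bambi* (-0.84) without the muscle-rich tumors.

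*Apcdd1*, a membrane-bound Wnt inhibitor that is itself a target, was higher. It was measured at 565, 375 and 566 CPM and at most 109 CPM in another tumor (log2FC 4.92 ± 0.20, adjusted p = 1.56e-09), and the LL2 sorted fibroblasts held 113 and 114 RPKM against 3.21 to 34.1 RPKM in the others. *Myc* was higher at 783, 1062 and 734 CPM (log2FC 1.98 ± 0.13, adjusted p = 8.3e-08), although EO771 was as high at a mean of 762 CPM. *Ccnd1* (489, 521 and 576 CPM), *Lef1* (1.02, 0.626 and 2.63 CPM) and *Znrf3* (21.7, 19.3 and 20.0 CPM) received no call.

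In the platelet-derived growth factor family the 2 receptors went in opposite directions, and 2 of 7 genes were higher and 2 lower. *Pdgfra* was higher, as given above, and *Pdgfrb*, the receptor of pericytes and fibroblasts, was lower at 34.1, 21.0 and 21.0 CPM against means of 104, 88.4 and 239 CPM in EO771, MC38 and Pan02 (log2FC -1.75 ± 0.24, adjusted p = 7.47e-05). *Pdgfc*, a ligand of the alpha receptor, was higher at 94.0, 91.3 and 80.1 CPM (log2FC 2.36 ± 0.17, adjusted p = 1.94e-07), with Pan02 at 116 CPM. *Pdgfd*, a ligand of the beta receptor, was lower (log2FC -1.32 ± 0.38, adjusted p = 0.0134). *Pdgfa* and *Pdgfb* received no call (30.4 to 34.2 CPM and 20.1 to 37.8 CPM in LL2). *Pdgfd* lost its call without LL2 tumor 1 or 3 (log2FC -1.24 to -1.17, adjusted p = 0.0549 to 0.063). *Pdgfd* (log2FC -0.98) lost its call without Pan02, and *Pdgfd* (-1.09) without the muscle-rich tumors. *Pdgfa* was called lower without B16 (log2FC -1.54).

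Of 19 fibroblast genes 6 were higher and 1 was lower, with a median log2FC of 0.0024. The small leucine-rich proteoglycan genes *Dcn* (443, 253 and 427 CPM, log2FC 2.12 ± 0.43, adjusted p = 0.00137) and *Lum* (349, 83.7 and 124 CPM, log2FC 2.78 ± 0.43, adjusted p = 0.000184) and *Dpt*, dermatopontin (142, 115 and 209 CPM, log2FC 2.57 ± 0.59, adjusted p = 0.00317), were higher, while Pan02 was as high (means 504, 217 and 146 CPM). *S100a4*, expressed by fibroblasts and by motile tumor cells, was higher than in every model at 501, 835 and 489 CPM (log2FC 3.42 ± 0.20, adjusted p = 2.47e-08), with 51.7% of its exon bases shared with another annotated gene. *Postn*, periostin of activated fibroblasts, was lower at 72.5, 58.4 and 68.9 CPM (log2FC -2.21 ± 0.41, adjusted p = 0.000676), against means of 540.5, 331 and 1823 CPM. *Fap* (2.63 to 2.99 CPM), *Col1a1* (2961, 1414 and 1099.7 CPM) and *Col1a2* (1155, 648 and 471 CPM) received no call. *Col3a1*, a fibril collagen, and *Fn1*, fibronectin, were called higher (log2FC 1.71 and 1.197). *Fn1* lost its call without LL2 tumor 1 (log2FC 0.81, adjusted p = 0.0268). *Col3a1* (log2FC 0.80) and *Fn1* (0.50) lost their calls without B16, and *Fn1* (0.80) without EO771. *Col1a1* was called lower without B16 (log2FC -1.81). *Col1a2* was called lower without B16 tumor 1 or MC38 tumor 2 (log2FC -1.28 to -1.26, adjusted p = 0.0156 to 0.0459), without B16 (-2.14), without MC38 (-1.03) and in DESeq2 (-1.18).

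Of 12 contractile and pericyte genes 4 were lower and 1 was higher. *Myl9*, a myosin light chain of smooth muscle, was at 7.95, 6.47 and 5.70 CPM (log2FC -1.75 ± 0.41, adjusted p = 0.00368) and *Tagln*, transgelin, at 9.11, 8.29 and 11.3 CPM (log2FC -2.24 ± 0.46, adjusted p = 0.00165), with 67.9% of its exon bases shared with other genes, and Pan02 averaged 80.6 and 242 CPM. *Acta2*, smooth muscle actin, was at 48.9, 48.1 and 37.3 CPM and received no call (log2FC -0.77 ± 0.43, adjusted p = 0.166). The higher gene was *Des*, desmin of skeletal muscle, at 8.70, 238 and 162 CPM, high in tumors 2 and 3 as the muscle genes were. *Cspg4* and *Notch3*, of pericytes, were lower (log2FC -1.45 and -1.26). The lower count was 7 without LL2 tumor 1, without MC38 tumor 2 or in DESeq2, and 8 without MC38. *Des* lost its call without LL2 tumor 2 or 3 or B16 tumor 1 or 3 or EO771 tumor 2 or 3 (log2FC 1.38 to 2.05, adjusted p = 0.0504 to 0.246), and *Notch3* without LL2 tumor 2 or 3 (-1.15 to -1.02, adjusted p = 0.0563 to 0.076). *Des* (log2FC 1.18) lost its call without B16, *Des* (1.67) and *Cspg4* (-0.95) without EO771, and *Notch3* (-0.25) without Pan02. *Des* (-1.10), *Cspg4* (-0.59) and *Notch3* (-0.28) lost their calls without the muscle-rich tumors, which were chosen by genes that include *Des*. *Acta2* was called lower without B16 (log2FC -1.42).

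Of 33 tested collagen genes 5 were higher and 9 lower (median log2FC -0.54). *Col18a1*, the basement membrane collagen that yields endostatin, was higher at 2409.5, 1411 and 2152 CPM (log2FC 2.46 ± 0.23, adjusted p = 2.03e-06), and *Col2a1*, the cartilage collagen, at 4.14, 19.9 and 10.7 CPM (log2FC 3.54 ± 0.36, adjusted p = 4.89e-06). *Col16a1* was higher at 437, 292 and 468 CPM (log2FC 1.003 ± 0.12, adjusted p = 1.85e-05). *Col13a1*, a transmembrane collagen, was lower than in every model at 0.612, 0.678 and 0.501 CPM against 2.43 to 13.7 CPM (log2FC -3.02 ± 0.49, adjusted p = 0.00024), and *Col11a1*, a fibril collagen raised in many carcinomas, was at 0.0679 to 0.313 CPM against 0.393 to 24.5 CPM (log2FC -3.85 ± 0.71, adjusted p = 0.000723). *Col9a1* was at 0 in all 3 LL2 tumors, which allows up to 3 counts or 0.156 to 0.204 CPM, and at 0 to 2.19 CPM elsewhere. The hemidesmosome collagen *Col17a1* was called at 0.815, 0.73 and 15.3 CPM, high in tumor 3 alone as the keratinocyte genes were (log2FC 1.95 ± 0.68, adjusted p = 0.0346). The higher count was 3 without LL2 tumor 3, B16 tumor 1, EO771 tumor 3 or Pan02 tumor 3 and in DESeq2, and 2 without B16, while the lower count was 16 without B16 and 5 without Pan02 or without muscle-rich tumors. *Col16a1* lost its call without LL2 tumor 1 or 3 or B16 tumor 1 or EO771 tumor 1 or 3 or MC38 tumor 1 or Pan02 tumor 1 or 3 (log2FC 0.88 to 0.9998, adjusted p = 2.31e-05 to 0.000279), and *Col17a1* without LL2 tumor 3 or B16 tumor 1 or 2 or EO771 tumor 2 or 3 or MC38 tumor 2 or 3 or Pan02 tumor 2 or 3 (-0.90 to 1.95, adjusted p = 0.0502 to 0.259). *Col16a1* (log2FC 0.72) and *Col17a1* (1.08) lost their calls without B16, *Col16a1* (0.99) without EO771, and *Col17a1* (1.94) without MC38. *Col17a1* (-0.59) lost its call without the muscle-rich tumors. DESeq2 did not call *Col16a1* (log2FC 0.98).

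Among 23 tested matrix proteases and inhibitors 4 were higher and 5 lower. *Plau*, urokinase plasminogen activator, was higher than in every model at 380.4, 308 and 317 CPM and at most 202 CPM elsewhere (log2FC 2.12 ± 0.20, adjusted p = 2.26e-06). *Mmp3*, stromelysin, was at 392, 71.1 and 81.3 CPM (log2FC 2.95 ± 0.43, adjusted p = 0.000114), highest in tumor 1, and *Mmp19* at 104, 179 and 122 CPM (log2FC 1.95 ± 0.21, adjusted p = 8.44e-06), with 28.3% of its exon bases shared. *Timp3*, a matrix-bound inhibitor of metalloproteases, was lower than in every model at 15.02, 18.9 and 20.4 CPM against 25.7 to 222 CPM (log2FC -1.97 ± 0.36, adjusted p = 0.000653). The collagenase gene *Mmp13* was lower at 9.44, 5.37 and 9.27 CPM (log2FC -2.59 ± 0.33, adjusted p = 3.26e-05), with EO771 and Pan02 at means of 180.0 and 167 CPM, and *Mmp17* was lower at 0.272, 0.626 and 0.501 CPM (log2FC -2.01 ± 0.50, adjusted p = 0.00538). *Mmp9*, which neutrophils and macrophages secrete, was called higher (log2FC 1.64 ± 0.34, adjusted p = 0.00165). The lower count was 3 without LL2 tumor 2 or without muscle-rich tumors and 8 without B16.

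In the transforming growth factor beta and bone morphogenetic protein family 5 of 27 tested genes were higher and 6 lower. *Tgfbr3*, betaglycan, the co-receptor that presents TGF-beta 2, was higher than in every model at 340.3, 222 and 347 CPM and at most 73.1 CPM elsewhere (log2FC 3.03 ± 0.14, adjusted p = 5.63e-09). *Tgfb2*, that ligand, was lower than in every model at 3.601, 2.92 and 1.88 CPM against 6.16 to 29.8 CPM (log2FC -2.10 ± 0.23, adjusted p = 8.86e-06), and *Tgfbr1*, the signaling receptor, was at 30.4, 23.2 and 26.8 CPM against 34.6 to 191 CPM (log2FC -1.05 ± 0.22, adjusted p = 0.00156). *Ltbp1*, which stores latent TGF-beta in the matrix, was higher at 303, 221 and 281 CPM (log2FC 1.88 ± 0.10, adjusted p = 1.28e-08), and *Bmp6* was higher at 4.42, 3.75 and 3.57 CPM against at most 3.30 CPM (log2FC 1.18 ± 0.23, adjusted p = 0.000902). *Smad6*, an inhibitor of bone morphogenetic protein signals, was lower at 1.77, 1.30 and 2.44 CPM (log2FC -1.63 ± 0.30, adjusted p = 0.000717). *Tgfb1* received no call (173, 183 and 200.2 CPM). Without B16 the higher count was 2, without Pan02 it was 8, and the lower count was 3 without Pan02 or without muscle-rich tumors. *Tgfbr1* lost its call without LL2 tumor 2 or Pan02 tumor 1 (log2FC -0.95 to -0.92, adjusted p = 1.36e-05 to 0.0144). *Ltbp1* (log2FC 0.79) lost its call without B16, *Bmp6* (0.84) without EO771, and *Tgfbr1* (-0.65) and *Smad6* (-0.92) without Pan02. *Tgfbr1* (-0.72) lost its call without the muscle-rich tumors.

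Of 12 endothelial genes none was higher by edgeR or DESeq2 and 1, *Emcn*, endomucin, was lower (log2FC -1.01 ± 0.30, adjusted p = 0.0166), with 2 lower in DESeq2. At an unadjusted p under 0.05, 6 were lower and none was higher, and the median log2FC of the list was -0.59. *Emcn* lost its call without LL2 tumor 2 or 3 or B16 tumor 2 or EO771 tumor 2 or MC38 tumor 3 or Pan02 tumor 1 (log2FC -1.01 to -0.82, adjusted p = 0.0125 to 0.0877). *Emcn* (log2FC -0.87) lost its call without EO771, and *Emcn* (-0.44) without the muscle-rich tumors.

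Of 15 listed lung epithelial genes 9 were tested, with 2 higher, 1 lower and a median log2FC of 0.50, and the genes that define surfactant and club cells were near 0. *Sftpa1*, *Sftpb*, *Sftpc*, *Sftpd*, *Scgb1a1* and *Scgb3a2*, the surfactant and club cell genes, were all too low to be tested, at no more than 0.104 CPM in any LL2 tumor. *Nkx2-1*, the transcription factor that defines lung epithelium, was at 0, 0 and 0.125 CPM. *Foxa2*, a transcription factor of lung and gut epithelium, was higher at 9.44, 15.2 and 10.96 CPM (log2FC 5.17 ± 0.26, adjusted p = 9.77e-09), but Pan02 was as high at 19.3 CPM. *Hopx*, found in alveolar type I cells and in many other tissues, lay above all other tumors at 40.8, 58.5 and 50.1 CPM (log2FC 2.37 ± 0.29, adjusted p = 2.15e-05), with 27.2% of its exon bases shared with *Hopxos*. *Aqp5*, a water channel of the same cells, was lower (log2FC -2.84 ± 0.47, adjusted p = 0.000302), and Pan02 averaged 159.7 CPM. *Aqp5* (log2FC -0.92) lost its call without Pan02.

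LL2 tumors carried both a simple-epithelium keratin and mesenchymal factors. *Krt18* was measured at 326, 431 and 266 CPM, against means of 1.65 to 2.93 CPM in B16, EO771 and MC38 and 1069 CPM in Pan02 (log2FC 4.97 ± 0.17, adjusted p = 4.26e-10). Its partner *Krt8* was at 229, 287 and 182 CPM, with EO771 and Pan02 at 1228 and 1050.2 CPM, and received no call (log2FC 1.34 ± 0.54, adjusted p = 0.0612). *Krt19* was higher at 11.9, 19.2 and 7.95 CPM (log2FC 1.92 ± 0.35, adjusted p = 0.000624), although Pan02 averaged 349.6 CPM. *Ovol1*, a factor that keeps cells epithelial, was lower at 0.136 to 0.501 CPM (log2FC -2.15 ± 0.45, adjusted p = 0.00174), and the keratin gene *Krt7* and the epithelial factor *Elf3* were lower (log2FC -1.92 and -1.36), highest in Pan02 at means of 160.0 and 25.2 CPM. In all, 2 of 13 tested epithelial genes were higher and 4 lower, and the lower ones include *Cdh1*, E-cadherin. Its call was lost when any of 7 tumors was left out (log2FC -1.16 to -0.80, adjusted p = 0.052 to 0.189). *Epcam* received no call. It was called higher without LL2 tumor 1 or 2 (log2FC 1.87 to 1.95, adjusted p = 0.0247 to 0.0328) and without Pan02 (1.94). Without LL2 tumor 3 it was called lower (-1.52, adjusted p = 0.0385). *Elf3* lost its call without LL2 tumor 2 or B16 tumor 2 or 3 (log2FC -1.32 to -1.18, adjusted p = 0.082 to 0.101). *Elf3* (log2FC -0.90) lost its call without EO771, *Elf3* (-1.05) without MC38, and *Elf3* (-0.23) without Pan02. *Krt7* (-1.97) and *Elf3* (-1.27) lost their calls without the muscle-rich tumors. *Krt8* was called higher without MC38 tumor 1 or 3 (log2FC 1.22 to 1.97, adjusted p = 3.78e-06 to 0.0408), without EO771 (2.58), without Pan02 (2.53) and without the muscle-rich tumors (1.88).

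Of 11 mesenchymal genes 8 were higher and 1 lower, with a median log2FC of 1.197. *Twist1*, a transcription factor of mesenchyme and of the epithelial-mesenchymal transition, was measured at 133, 120.5 and 125 CPM, higher than in every model (at most 68.6 CPM, log2FC 2.52 ± 0.13, adjusted p = 8.59e-09), and so was *Prrx1* at 288, 250.4 and 267 CPM (at most 112 CPM, log2FC 2.58 ± 0.14, adjusted p = 1.28e-08). *Vim*, vimentin, was at 6081, 7684 and 5758 CPM and also lay above all other tumors (log2FC 1.19 ± 0.11, adjusted p = 2.41e-06), as did *Twist2* at 96.4, 151 and 90.2 CPM (log2FC 2.19 ± 0.18, adjusted p = 7.7e-07), 46.5% of whose exon bases are shared. *Zeb1* (76.0, 57.6 and 60.1 CPM, log2FC 1.40 ± 0.12, adjusted p = 1.27e-06), *Snai2* (16.3, 10.3 and 12.6 CPM, log2FC 1.16 ± 0.28, adjusted p = 0.0043) and *Cdh2*, N-cadherin (24.1, 22.9 and 18.6 CPM, log2FC 1.34 ± 0.14, adjusted p = 6.75e-06), were higher and overlapped with other models. *Foxc2* was lower at 0.747, 0.939 and 1.31 CPM (log2FC -2.84 ± 0.27, adjusted p = 2.32e-06), with MC38 and Pan02 at 40.1 and 89.8 CPM. Without B16, where most of these genes were lowest, the higher count was 4. *Snai2* lost its call without LL2 tumor 1 (log2FC 0.96, adjusted p = 0.0353). *Twist2* (log2FC 0.86), *Zeb1* (0.68) and *Snai2* (0.97) lost their calls without B16, and *Snai2* (0.88) and *Cdh2* (0.51) without EO771.

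Of 12 tested genes of epidermal growth factor ligands and receptors 5 were higher and 3 lower. *Areg*, amphiregulin, was higher than in every model at 49.5, 113 and 45.4 CPM and at most 20.2 CPM elsewhere (log2FC 4.29 ± 0.27, adjusted p = 5.62e-08), and *Ereg*, epiregulin, was at 26.2, 75.8 and 24.7 CPM (log2FC 2.80 ± 0.35, adjusted p = 2.69e-05). *Btc*, betacellulin, was at 5.10, 8.19 and 4.88 CPM (log2FC 2.07 ± 0.25, adjusted p = 2.28e-05). Both *Areg* and *Ereg* were highest in LL2 tumor 2. *Erbb3*, a receptor for neuregulins, was lower than in every model at 1.77, 2.09 and 2.63 CPM against 4.71 to 83.4 CPM (log2FC -2.83 ± 0.22, adjusted p = 4.89e-07), and *Nrg2*, one of its ligands, was at 1.02, 1.30 and 1.31 CPM against 1.68 to 8.21 CPM (log2FC -1.63 ± 0.23, adjusted p = 7.04e-05). *Hbegf* and the receptor gene *Egfr* were higher too (log2FC 1.07 and 1.57), and the neuregulin gene *Nrg1* was lower, close to the threshold (log2FC -1.17 ± 0.42, adjusted p = 0.0407). The higher count was 3 without B16. *Hbegf* lost its call without LL2 tumor 2 or Pan02 tumor 3 (log2FC 0.65 to 0.99, adjusted p = 0.00199 to 0.0225), and *Nrg1* without LL2 tumor 1 or 2 or B16 tumor 1 or 3 or EO771 tumor 1 or 3 or MC38 tumor 1 or 2 (-1.17 to -0.74, adjusted p = 0.0544 to 0.125). *Hbegf* (log2FC 0.15) and *Egfr* (0.67) lost their calls without B16, *Hbegf* (0.999) and *Nrg1* (-0.62) without MC38, and *Nrg1* (-0.23) without Pan02. *Hbegf* (0.81) lost its call without the muscle-rich tumors.

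Of 13 tested fibroblast growth factor and hepatocyte growth factor genes 3 were higher and 1 lower, beside 8.51% and 8.3% of all tested genes. *Fgf10*, which directs lung branching, was higher than in every model at 9.99, 3.44 and 6.64 CPM (log2FC 3.42 ± 0.29, adjusted p = 1.07e-06), and *Fgf7*, keratinocyte growth factor, at 27.0, 26.8 and 20.1 CPM (log2FC 2.74 ± 0.34, adjusted p = 3.01e-05). *Fgfr1* lay above all other tumors at 955, 742 and 819 CPM (at most 646 CPM, log2FC 1.85 ± 0.15, adjusted p = 6.23e-07), whereas *Fgfr3* lay below them at 0.951, 0.522 and 1.57 CPM (log2FC -2.14 ± 0.53, adjusted p = 0.00552). *Fgfr1* (log2FC 0.81) lost its call without B16.

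Of 10 tested filament genes of nerve cells 4 were higher, *Nefl* and *Nefm* among them, and 4 lower. *Prph*, peripherin, was higher at 9.24, 11.4 and 9.14 CPM (log2FC 1.76 ± 0.22, adjusted p = 3.51e-05), with B16 at 18.1 CPM. *Tubb3*, neuronal tubulin, was lower at 13.7, 27.1 and 34.8 CPM (log2FC -1.57 ± 0.26, adjusted p = 0.000278) and *Map2*, of dendrites, at 0.408, 0.261 and 0.125 CPM (log2FC -3.25 ± 0.33, adjusted p = 4.69e-06). *Uchl1*, a neuronal ubiquitin hydrolase, was higher (log2FC 1.28 ± 0.31, adjusted p = 0.00438). *Nefh*, the heavy subunit, was called lower from levels of at most 0.25 CPM in LL2 (log2FC -1.81 ± 0.66, adjusted p = 0.0401). The lower count was 2 without B16. *Uchl1* lost its call without LL2 tumor 2 (log2FC 0.86, adjusted p = 0.0721), and *Nefh* without LL2 tumor 1 or 2 or B16 tumor 1 or 2 or EO771 tumor 1 or 3 or MC38 tumor 3 or Pan02 tumor 2 (-1.91 to -1.31, adjusted p = 0.0503 to 0.126). *Nefh* (log2FC -1.81) lost its call without B16, *Uchl1* (0.94) without EO771, and *Uchl1* (0.80) without MC38. *Prph* (0.88) lost its call without Pan02, and *Uchl1* (1.202) without the muscle-rich tumors.

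None of 26 cell cycle genes was called by edgeR or DESeq2, and the median log2FC was 0.03. At an unadjusted p under 0.05, 8 were higher and 4 lower. Of the 26, 10 had an adjusted p under 0.05, and every log2FC was below the size threshold (-0.85 to 0.87). *Ccnb2* was called higher without B16 (log2FC 1.16). *Cdk2* was called lower without EO771 or without Pan02 (-1.29 in both), and *Ccne1* (-1.20) and *Ccnd2* (-1.09) without Pan02. *Mki67*, the proliferation marker, was at 153, 125 and 135 CPM. Hypoxia and glycolysis genes gave 2 higher and 1 lower of 25, no larger shares than the 8.51% and 8.3% of all tested genes. *Adm*, adrenomedullin, was higher than in every model at 169, 283 and 84.1 CPM (log2FC 2.59 ± 0.30, adjusted p = 1.59e-05), *Egln3*, an oxygen-sensing hydroxylase, was at 352, 438 and 258 CPM (log2FC 1.77 ± 0.20, adjusted p = 1.33e-05), and *Slc16a3*, the lactate exporter, was lower at 146, 189 and 166 CPM (log2FC -1.37 ± 0.13, adjusted p = 1.89e-06). Among 21 driver and suppressor genes, the cell cycle inhibitor *Cdkn1a* was higher at 448, 564 and 430.4 CPM (log2FC 1.29 ± 0.11, adjusted p = 7.91e-07) and its relative *Cdkn2b* lower at 0.544, 0.574 and 0.626 CPM (log2FC -2.34 ± 0.36, adjusted p = 0.00016). *Trp53* was at 307, 314 and 302 CPM, above all other tumors (at most 246 CPM), with a log2FC of 0.85 ± 0.10 under the size threshold. *Egln3* (log2FC 0.78) lost its call without B16.

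Of 15 Nrf2 target genes, which answer oxidative stress, 3 were higher and 3 lower. *Nqo1* (11.5, 12.6 and 8.20 CPM, log2FC 1.30 ± 0.16, adjusted p = 2.38e-05) and *Srxn1* (155, 219 and 137 CPM, log2FC 1.16 ± 0.12, adjusted p = 5.87e-06) were higher, with MC38 above LL2 for *Nqo1* at 22.6 CPM. *Hmox1*, heme oxygenase 1, was higher at 815, 704 and 239 CPM (log2FC 1.24 ± 0.33, adjusted p = 0.00838). *Gsta4* was lower at 5.64, 3.96 and 2.32 CPM (log2FC -2.01 ± 0.23, adjusted p = 1.57e-05) and *Osgin1* at 15.8, 12.6 and 10.8 CPM (log2FC -1.49 ± 0.19, adjusted p = 4.26e-05). Without LL2 tumor 2, the higher count was 1. *Srxn1* lost its call without LL2 tumor 2 (log2FC 0.94, adjusted p = 4.42e-05), and *Hmox1* without LL2 tumor 1 or 2 (0.94 to 1.09, adjusted p = 0.0534 to 0.0782). *Srxn1* (log2FC 0.81) lost its call without B16, *Osgin1* (-0.82) without EO771, and *Nqo1* (0.64) without Pan02.

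The remaining lists mark tissue that a fragment may contain. Of 9 melanocyte genes 8 were lower than the average of the models, and they were abundant in B16 alone (summed 23945 to 29790 CPM against 29.2 to 39.3 CPM in LL2), and all 8 lost their calls without B16. Of 12 skeletal muscle genes 8 were higher, among them *Acta1* at 1.16, 587 and 611 CPM (log2FC 3.98 ± 0.92, adjusted p = 0.00348). The fit without muscle-rich tumors is no separate check on these genes, because their summed level decided which tumors were left out. Of 6 tested keratinocyte genes 4 were higher, and without LL2 tumor 3 there were 2. *Krt15*, of basal keratinocytes, was at 0.136, 0.156 and 21.8 CPM, and *Krt10*, of upper epidermis, at 3.33, 3.29 and 4.45 CPM (log2FC 1.86 ± 0.30, adjusted p = 0.000232). Among 8 fat cell genes *Lpl*, lipoprotein lipase, was lower at 16.7, 23.5 and 34.6 CPM (log2FC -1.57 ± 0.35, adjusted p = 0.00252) and *Car3*, also of muscle, was higher at 4.42, 72.9 and 92.8 CPM (log2FC 1.92 ± 0.60, adjusted p = 0.0204). None of 5 tested red cell genes was called by edgeR or DESeq2, and none had an unadjusted p under 0.05. *Krt15* lost its call without LL2 tumor 3 (log2FC 0.97, adjusted p = 0.221), and *Car3* without LL2 tumor 2 or 3 (1.38 to 1.70, adjusted p = 0.0931 to 0.152). *Acta1* (log2FC 2.66) and *Car3* (1.53) lost their calls without B16, *Acta1* (2.74) and *Car3* (1.33) without EO771, and *Acta1* (-3.50), *Krt15* (0.55) and *Car3* (-1.28) without the muscle-rich tumors.

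**Figure D4:**
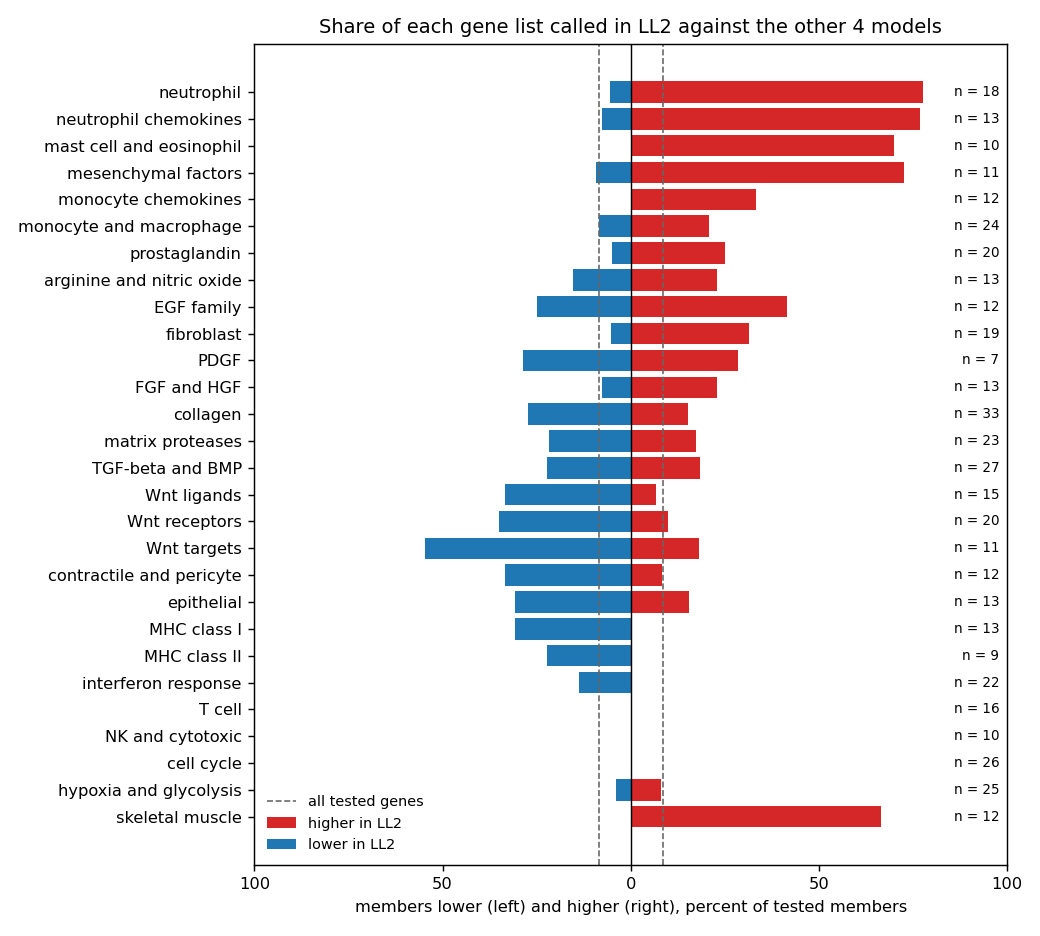
Percent of the tested genes of 28 lists that were called higher (right, red) or lower (left, blue) in LL2 tumors, with dashed lines at the shares of all 15732 tested genes (8.51% higher, 8.3% lower). Neutrophil genes (14 of 18), neutrophil chemokines (10 of 13) and mesenchymal genes (8 of 11) reach farthest to the right among the lists that do not mark muscle, skin or mast cells.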

How the data were processed

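Whole-tumor RNA from 15 tumors of 5 models, 3 per model, was compared, and sorted fibroblasts from 8 libraries were read only beside a tumor result. Per the submitters' processing notes, STAR 2.5.0c, HOMER and DESeq2 were used by the authors on the mm10 build, and the deposited tumor table holds estimated counts per RefSeq transcript in steps of 0.5, before normalization. The fibroblast table was deposited by the authors as RPKM, a unit already scaled for depth and length, and was not tested. In all, 5 columns of per-sample values (3 tumor and 2 fibroblast) were not used here.

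Of 40458 transcripts, 2 named no gene (2.08e-05% of counts) and were left out. For each of the 24940 symbols the transcript with the largest mean count was kept (69.4% of symbols had 1 transcript), and counts ending in 0.5 were rounded up. Genes passing edgeR's expression filter (15732) were normalized with TMM factors, and edgeR 4.0.16 (R 4.3.3, limma 3.58.1) was used for the quasi-likelihood test with Benjamini-Hochberg adjustment over all of them, in 1 fit of the 5 models with a common dispersion of 0.0559. LL2 was compared with the mean of the 4 other models and with each model alone. Genes counted as higher or lower than in each model passed the adjusted p of 0.05 and a log2FC of 1 in all 4 single comparisons. Total counts were 10035175.5 to 21946490.5 per tumor, and a count of 0 allows up to 3 counts, for counting error only. Tables were handled with Python 3.11.15, pandas 2.3.3 and numpy 2.4.6, and plots drawn with matplotlib 3.10.9.

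The members and the 42 gene lists (666 genes) were chosen with earlier results of these data known, so list counts and medians are descriptions and were given no test. The genes named are *Dkk2*, *S100a8* and *Pdgfra*, the 12 largest rises and 12 largest falls among called genes of at least 10 CPM whose LL2 and other tumors did not overlap, and, in each list, the called members with the largest log2FC and the members that define the list. Alternatives were DESeq2 1.42.0, total-count scaling, other filters, thresholds and transcript choices, and leaving out each tumor or each model. Leaving out muscle-rich tumors was added after seeing the data. The fits were tested on simulated data.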

Additional observations from a re-analysis of the deposited data

How the results depend on the processing

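Against 1339 genes higher, 1305 lower, and 204 higher and 106 lower than in each model, leaving out 1 tumor at a time gave 1242 to 1431, 1050 to 1473, 190 to 220 and 85 to 131. DESeq2 gave 1281, 1417, 201 and 113, of which 1271, 1273, 200 and 100 were shared genes. With no threshold on the fold change the counts were 3668, 2975, 569 and 266, and with edgeR's glmTreat, which tests against the fold threshold itself, 648, 514, 85 and 34. Genes lower than in each of the models left numbered 266 without B16, 292 without EO771, 188 without MC38 and 204 without Pan02, and genes higher 313 without EO771 and 471 without Pan02, where 3 models had to be passed in place of 4. Without the 5 muscle-rich tumors the counts were 1272, 1254, 237 and 136, and 996, 816, 152 and 58 were shared genes.

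With a replicate block the counts were 1303, 1281, 198 and 101. Of the named genes, the block ended the calls of *Marco* (adjusted p = 0.0639), *Des* (0.0817), *Col17a1* (0.171), *Nrg1* (0.0585) and *Emcn* (log2FC -0.99). The labels do not say whether the numbers pair the tumors. Deviations of tumors with the same number correlated at -0.1751 to 0.2454 (median 0.0134, 30 pairs). Those with different numbers correlated at -0.3168 to 0.2713 (median 0.0104, 60 pairs). No shared deviation by number was seen, which cannot show that the tumors were unpaired. Rounding counts that end in 0.5 down ended the calls of *Ido1* (adjusted p = 0.0659), *Nefh* (0.0509) and *Nrg1* (0.0578), the longest transcript that of *Emcn* (log2FC -0.998), and total-count scaling or a filter of 5 CPM in 3 tumors that of *Col16a1* (0.99 and 0.96). Among the named genes, the log2FC turned negative for *Col17a1* without LL2 tumor 3 (-0.90, and up to 2.48 without another tumor). *Epcam*, which received no call in the main fit, also changed direction. It was called lower without LL2 tumor 3 (log2FC -1.52) and higher without LL2 tumor 1 or 2 (1.87 to 1.95). Without the muscle-rich tumors the log2FC turned negative for *Acta1* (-3.50), *Car3* (-1.28), *Col17a1* (-0.59), *Des* (-1.10), *Fpr2* (-0.13), *Gzmb* (-2.02) and *Hp* (-0.060). *Acta1* and *Des* are among the muscle genes by which those tumors were chosen, so that fit is no separate check on them. For the other genes the cause was not tested. With 3 tumors per model and LL2 tumors that differed in muscle, skin and T cell RNA, calls near either threshold rest on few tumors.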
